A study of Equus caballus with 6 samples.

Results

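The genes described here encode joint-inducing ligands of the BMP and TGF-beta family, a receptor and an antagonist of these ligands, and genes that respond to them: GDF5, GDF6, BMP4, TGFB2, BMPR1B, NOG, SMAD7, ID1, ID2 and ID3. They were found on a horse oligonucleotide array as the probes whose description gives the symbol or the full gene name. Of these 10 genes, 9 had a probe by that rule, 25 probes in all, out of 13633 genes with a name and 43603 probes on the array. ID3 had no probe by that rule and is absent in that sense. 1 further probe carried only a gene number that the RefSeq gene table pairs with ID3, and its values are given under that name with this reservation. The 3 adult regions were layers of articular cartilage of the stifle at 15 years of age, cut by depth. They were superficial (the outermost 10% of the thickness), middle (labelled as the adjacent 20 to 30%) and deep (from 50 to 90% of the depth). The middle label was read as a depth of 20 to 30%, though it could also mean a thickness. The 3 fetal regions were cut from hindlimb sections of gestational day 40. Intermediate interzone and outer interzone are layers of the cell band in which a joint forms, and transient embryonic cartilage is later replaced by bone. The labels name no genetic change or treatment for any region, and each region was collected by laser capture from stained frozen sections and amplified by PCR before labelling. Each of the 6 regions was 1 array, how many animals it came from is not stated in the labels, and the 3 adult arrays lay on slide 2 while the 3 fetal arrays lay on slide 1, so that age and slide cannot be told apart.

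BMPs and GDFs are secreted dimers that bind a pair of type I and type II receptor kinases, which phosphorylate SMAD1, SMAD5 and SMAD9, whereas TGF-betas and activins act through SMAD2 and SMAD3. SMAD4 is the shared partner, SMAD6 and SMAD7 are feedback inhibitors, and the ID genes, which encode helix-loop-helix proteins without a DNA-binding domain, are among the best known targets of BMP signals. GDF5 marks the interzone of developing limb joints in mouse and human, its main type I receptor is BMPR1B, and noggin (NOG) is a secreted protein that binds BMPs and GDFs and keeps them from their receptors.

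A level is given below as the processed signal of a probe in percent of its array's 75th percentile, taken over the 1765 probes that lay well above background on all 6 arrays. That percentile corresponded to 2560, 507 and 891 intensity units on the superficial, middle and deep adult arrays and to 2400, 4390 and 4270 units on the intermediate interzone, outer interzone and transient cartilage arrays. A probe counts as detected where the scanner software called it well above background, and where only 1 side of a comparison was detected the difference is given as a bound ("at least N-fold"), measured against the lowest detected signal of the dimmer array. Levels of different probes are not set against each other, and since every region was 1 array no difference has a replicate check or a p-value. The share of probes detected ran from 8.40% on the adult middle array to 26.4% on the adult superficial array, and from 36.9 to 44.6% on the fetal arrays. Of 14 cartilage marker genes on the array, 9 were detected in the intermediate and 12 in the outer interzone, against all 14 in transient cartilage. The adult arrays had 5, 4 and 4 of these 14, with ACAN, SOX9 and COMP detected on all 3 but the main cartilage collagen gene COL2A1 on none. Each array reads the RNA of a whole captured region, so fewer cells with a transcript and less RNA per cell cannot be told apart.

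The probes set what could be measured. GDF5 and GDF7 encode close relatives, and their probes covered the same stretch: at the best ungapped alignment they matched at 48 of 54 bases. They are shown because a transcript of one gene could bind the probe of the other, which was not tested. Matching bases are in capitals.
GDF5: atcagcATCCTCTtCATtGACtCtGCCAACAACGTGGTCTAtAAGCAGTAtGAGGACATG
GDF7: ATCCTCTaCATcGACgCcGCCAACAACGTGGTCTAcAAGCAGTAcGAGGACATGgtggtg

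The GDF6 probe matched the GDF5 probe at 21 of 58 aligned bases. It is shown beside them because the gene was detected on none of the arrays that detected GDF5.
GDF6: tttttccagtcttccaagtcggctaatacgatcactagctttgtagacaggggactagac

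BMP4 had 9 probes, but these were 5 distinct sequences within a window of 64 bases, of which 56 bases (capitals) were common to all, so their close readings are repeats of 1 site and not independent evidence. The first and the last of the window were the following.
BMP4 first: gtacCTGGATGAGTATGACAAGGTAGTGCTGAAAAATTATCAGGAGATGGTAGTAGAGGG
BMP4 last: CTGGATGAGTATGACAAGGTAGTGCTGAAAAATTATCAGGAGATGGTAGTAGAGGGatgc

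The 2 probes of SMAD7 lay apart in the transcript and differed in the size of the changes they reported, so both are shown, the reported one first.
SMAD7 reported: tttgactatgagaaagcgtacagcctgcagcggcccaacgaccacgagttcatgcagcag
SMAD7 other: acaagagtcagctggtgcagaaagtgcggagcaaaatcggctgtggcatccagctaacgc

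Among the ligands, GDF5 was detected in the 2 interzone layers and on no other array. Its level was 0.0684, 0.312 and 0.172% in the superficial, middle and deep adult layers, 26.8% in the intermediate interzone, 9.61% in the outer one and 0.0452% in transient cartilage. The detected signals were 642 and 422 intensity units in the intermediate and outer interzone, while the other 4 arrays had 1.53 to 1.93 units. The intermediate interzone exceeded transient cartilage in GDF5 at least 135-fold, and the outer interzone did so at least 48.5-fold. These bounds, 7.08 and 5.60 on the log2 scale, depended on the processing. Under quantile normalization they were 6.41 and 4.54, and after normexp 3.94 and 2.41. Between the 2 interzone layers GDF5 was 2.78-fold higher in the intermediate one (log2 difference 1.48, spot error 0.20). The median of all genes there was 0.21, and probes of 1 gene differed with a pooled SD of 0.58. Detection on the 2 interzone arrays alone was seen for 262 of 13633 genes (1.92%).

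**Figure D1:**
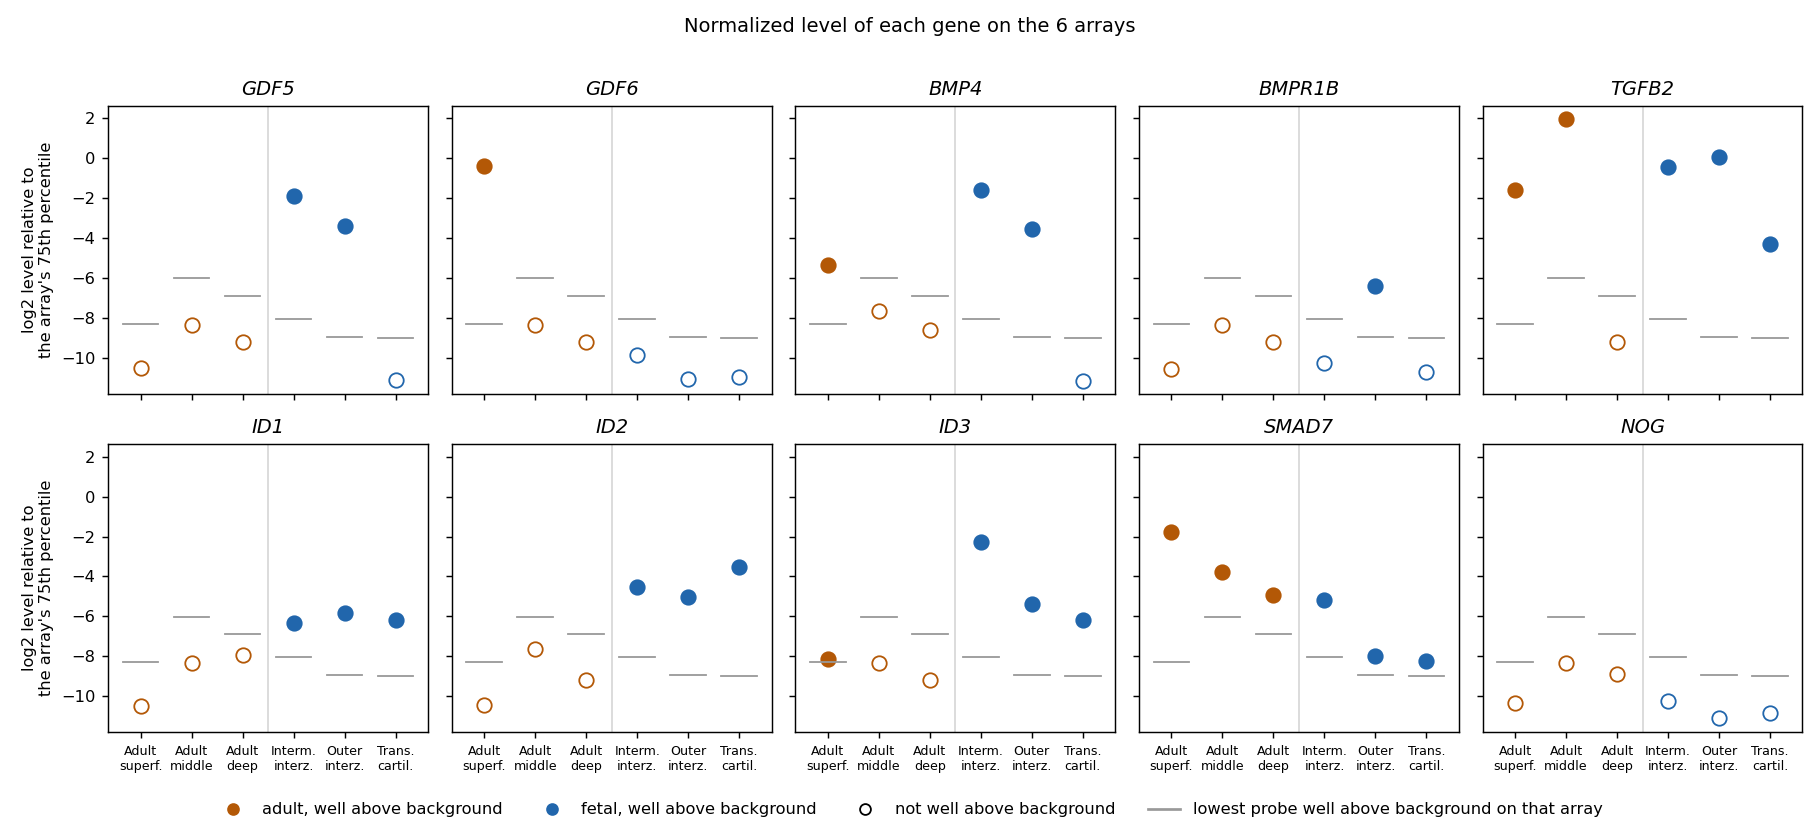
Normalized level (log2 relative to the array's 75th percentile) of the reported probe of each of the 10 genes on the 6 arrays, adult layers on the left and fetal regions on the right. Filled points were well above background, open points were not, and the grey dash is the lowest detected probe of that array. GDF5 stands above the dash on the 2 interzone arrays alone, GDF6 on the adult superficial array alone, and NOG on no array.

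GDF6, a second joint-associated GDF, was detected in the superficial layer of adult cartilage alone, where its level was 76.2% (1950 intensity units). The middle and deep adult layers had 0.312 and 0.172%, and the fetal arrays 0.108, 0.0474 and 0.0515% in the intermediate interzone, outer interzone and transient cartilage. The superficial layer exceeded the middle layer at least 49.1-fold in GDF6 and the deep layer at least 88.7-fold. It exceeded the fetal arrays at least 198-fold (intermediate interzone), at least 374-fold (outer interzone) and at least 384-fold (transient cartilage). The bounds over the middle and deep layers depended on the processing. They were 5.62 and 6.47 on the log2 scale. Under quantile normalization they were 3.29 and 3.92, and after normexp background correction 2.82 and 3.50. The bounds over the fetal arrays were not computed under these alternatives. GDF6 and GDF5 thus shared no array on which both were detected. The superficial array alone detected 374 of 13633 genes (2.74%).

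BMP4 was read by all 9 probes in the superficial adult layer, at 2.50 to 3.09%, and by none in the middle and deep layers. All 9 probes were also detected in the intermediate interzone, at 33.3 to 40.0%, and in the outer interzone, at 8.61 to 10.7%, but none in transient cartilage, where they read 0.0438 to 0.0578%. By the reported probe the intermediate interzone exceeded transient cartilage at least 170.1-fold and the outer interzone at least 43.8-fold. Over the 9 probes these bounds ran from 168 to 202 and from 43.5 to 53.9. The reported-probe bounds, 7.4104 and 5.4529 on the log2 scale, depended on the processing. Under quantile normalization they were 7.0024 and 4.3876, and after normexp 4.4077 and 2.487. The intermediate interzone was 3.88-fold above the outer interzone (3.58 to 4.01 over the probes, SD 0.05 on the log2 scale). In the adult, BMP4 in the superficial layer exceeded the deep layer at least 2.92-fold and the middle layer at least 1.62-fold. Neither quantile normalization nor normexp gave a bound for these adult comparisons. BMP4, like GDF5, was highest in the intermediate interzone, but unlike GDF5 it was also detected in superficial adult cartilage, a combination seen for 79 of 13633 genes (0.579%).

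TGFB2, a TGF-beta ligand, was detected on 5 of the 6 arrays by both of its probes. The reported probe had 33.0, 391 and 0.172% in the superficial, middle and deep adult layers, and 74.2, 104 and 5.18% in the intermediate interzone, outer interzone and transient cartilage. The deep adult layer was the only array on which it was not detected, a pattern seen for 179 of 13633 genes (1.31%). TGFB2 was 14.3-fold higher in the intermediate interzone than in transient cartilage (log2 3.84, spot error 0.20), and 16.7-fold by the second probe. In the outer interzone it was 20.2-fold higher than in transient cartilage, and 25.2-fold by the second probe. The 2 interzone layers were close, with the intermediate one 1.41-fold below the outer one by the first probe and 1.51-fold by the second. In the adult the middle layer was at least 455-fold above the deep layer by the reported probe, and the superficial layer at least 38.4-fold (at least 386-fold and 15.4-fold by the second). On the log2 scale these reported-probe bounds were 8.83 and 5.26. Under quantile normalization they were 5.95 and 2.11, and after normexp 5.83 and 2.47. The superficial layer was 11.8-fold below the middle layer (log2 -3.57), or 25.1-fold by the second probe, in a comparison where the median of all genes was -1.52, so that relative to that median the difference was -2.05. With the authors' values it was -1.62 (3.07-fold lower).

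**Figure D2:**
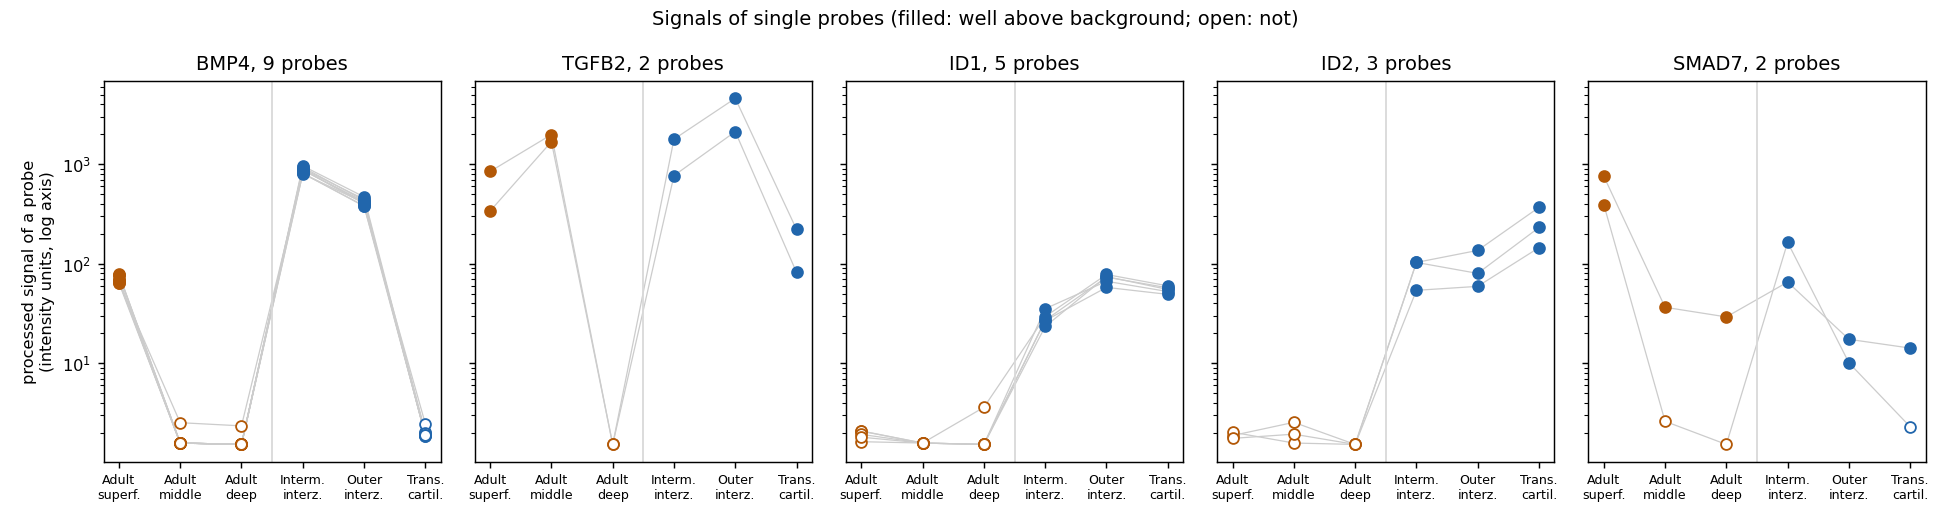
Processed signal in intensity units (log axis) of every probe of the 5 genes with several probes, on the 3 adult and the 3 fetal arrays. Grey lines join the readings of 1 probe, filled points were well above background and open points were not. The probes of BMP4 and of TGFB2 rise and fall together, while the second SMAD7 probe drops to the floor on the adult middle and deep arrays.

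Other ligands of the family had distributions of their own. GDF7 was detected on all 6 arrays, at 0.547, 4.71 and 1.99% in the superficial, middle and deep adult layers and at 5.33, 2.24 and 0.349% in the intermediate interzone, outer interzone and transient cartilage. It was 15.3-fold higher in the intermediate interzone and 6.42-fold higher in the outer interzone than in transient cartilage, in the same direction as GDF5, whose probe its own resembles. BMP6, read by 5 of 5 probes, was detected in the superficial adult layer alone (65.6%), as GDF6 was. BMP7 was detected in the superficial adult layer (0.875%) and in transient cartilage (3.44%) but in neither interzone layer. It was lower than in transient cartilage by at least 8.94-fold in the intermediate and by at least 16.9-fold in the outer interzone. GDF10 had 0.0858% (not detected) in the intermediate interzone, 3.44% in the outer one and 11.1% in transient cartilage, with the intermediate interzone below transient cartilage by at least 28.9-fold. INHBA, which encodes the activin A subunit, had 165 and 221% in the superficial and middle adult layers and was not detected in the deep layer, a pattern over the adult arrays like that of TGFB2. In the fetus INHBA had 3.35, 7.52 and 0.768%, which was 4.36-fold higher in the intermediate and 9.79-fold higher in the outer interzone than in transient cartilage. The intermediate difference was 2.12 on the log2 scale, and scaling to the 50th percentile, which moved it by -0.55, put it under 4-fold. TGFB1 had a probe that was detected on no array.

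BMPR1B, the type I receptor that binds GDF5, was detected in the outer interzone alone, at 1.18% (51.7 intensity units). The adult layers had 0.0660, 0.312 and 0.172%, the intermediate interzone 0.0825% and transient cartilage 0.0607%, none of them detected. The outer interzone was at least 5.94-fold above transient cartilage, and the intermediate interzone was at least 3.06-fold below the outer one. The bound over transient cartilage was 2.92-fold under quantile normalization and 1.33-fold after normexp. The bound between the interzone layers was -0.68 on the log2 scale under quantile normalization, and normexp gave none. GDF5 and its receptor were therefore both detected in the outer interzone, while in the intermediate interzone, where GDF5 was highest, the single BMPR1B probe was not. Detection in the outer interzone alone was seen for 493 of 13633 genes (3.62%).

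The receptor group as a whole was detected most often in the outer interzone. Of 15 receptor and co-receptor genes on the array, 4, 2 and 3 were detected in the superficial, middle and deep adult layers, 2 in the intermediate interzone, 10 in the outer one and 3 in transient cartilage. Among all genes the outer interzone did not detect the most: 38.1% of named genes were detected in the intermediate interzone, 43.8% in the outer one and 45.9% in transient cartilage. The superficial, middle and deep adult layers detected 26.7, 13.3 and 20.0% of the receptor genes, against 29.0, 9.85 and 12.5% of all genes. Among the fetal arrays, 6 receptor genes were detected in the outer interzone alone (BMPR1B, ACVR1, ACVR1B, ACVRL1, TGFBR1 and RGMB), which is 40.0% of the 15, against 5.20% of all genes. TGFBR1 was among them through 2 of its 6 probes. The receptor group was chosen with earlier results of these data known, so its shares are descriptive. ACVRL1, a type I receptor known from endothelium, had 0.0933% in the intermediate interzone, 4.74% in the outer one (4 of 4 probes) and 0.0489% in transient cartilage. The outer interzone was at least 23.9-fold above transient cartilage in ACVRL1. ENG, its co-receptor, had 2.58 and 3.10% in the intermediate and outer interzone and was at least 13.0-fold and at least 15.6-fold above transient cartilage. TGFBR2, the type II TGF-beta receptor, had 0.248% (not detected) in the intermediate interzone, 2.85% in the outer one and 1.49% in transient cartilage. In the adult, TGFBR1 had 17.1 and 4.77% in the superficial and middle layers and was not detected in the deep layer. BMPR1A, the other BMP type I receptor, was detected in the deep layer alone (3.41%), and TGFBR2 was 7.97-fold lower in the superficial than in the deep layer. That TGFBR2 difference was -3.00 on the log2 scale, where the median of all genes was -0.83. With the authors' values none of the family genes read here was counted as at least 4-fold lower in that comparison. The 5 endothelial markers on the array were detected on none of the 3 fetal arrays. The epithelial markers EPCAM and KRT17 were the 2 of 5 detected in the outer interzone, with a summed level of 24.6%, against 0 of 5 in the intermediate interzone and in transient cartilage, and their part in the receptor result was not tested. TAGLN, the single smooth muscle marker on the array, had signals of 264 and 901 intensity units in the intermediate and outer interzone and was not detected in transient cartilage, and its part was not tested either.

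**Figure D3:**
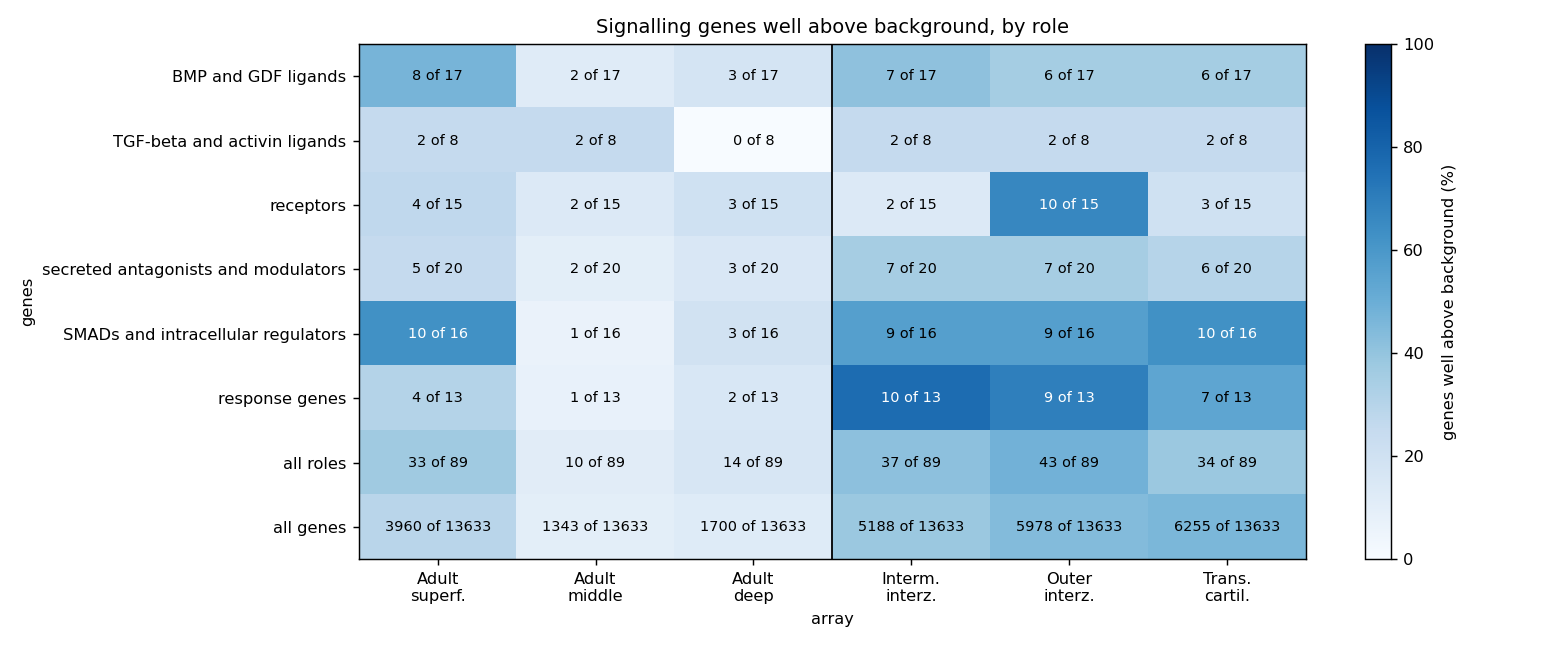
Number of BMP and TGF-beta family genes well above background on each array, by role, with all genes in the bottom row. Shading gives the percentage of genes on the array. Receptors reach 10 of 15 in the outer interzone, against 2 in the intermediate interzone and 3 in transient cartilage.

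NOG, the secreted antagonist, was detected on no array. Its single probe read 0.0785, 0.312 and 0.211% in the superficial, middle and deep adult layers and 0.0846, 0.0462 and 0.0557% in the intermediate interzone, outer interzone and transient cartilage. It shared that result with 5161 of 13633 genes (37.9%), so at this signal over background a low level could not be told from none. Other antagonists and modulators were detected. FST (follistatin), which binds activins and BMPs, had 23.3 and 9.41% in the intermediate and outer interzone and was not detected elsewhere. In FST the intermediate interzone exceeded transient cartilage at least 118-fold and the outer one at least 47.5-fold. LTBP1, which tethers latent TGF-beta to the matrix, had 50.0, 62.6 and 6.16% in the intermediate interzone, outer interzone and transient cartilage, and was 8.12-fold and 10.2-fold higher in the 2 interzone layers than in transient cartilage. TWSG1 and SOSTDC1 went the other way. TWSG1, a BMP-binding protein, had 11.6% in transient cartilage, and its level was lower by at least 30.2-fold in the intermediate and by 35.7-fold in the outer interzone. SOSTDC1, a BMP and WNT antagonist, was detected in transient cartilage alone (5.55%). Of the 20 genes of this group on the array, 5, 2 and 3 were detected in the superficial, middle and deep adult layers (25, 10 and 15%, against 29.0, 9.85 and 12.5% of all genes). In the intermediate interzone, outer interzone and transient cartilage 7, 7 and 6 were detected (35, 35 and 30%, against 38.1, 43.8 and 45.9% of all genes). These shares were near or below those of all genes.

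SMAD7, the inhibitory SMAD, was the only one of the 10 genes detected on all 6 arrays, as were 4.47% of all genes. The reported probe had 29.5, 7.20 and 3.28% in the superficial, middle and deep adult layers and 2.73, 0.396 and 0.333% in the intermediate interzone, outer interzone and transient cartilage. The second probe was detected on 3 arrays, with 15.4% in the superficial layer and 6.83 and 0.230% in the intermediate and outer interzone. In the fetus SMAD7 was 8.19-fold higher in the intermediate interzone than in transient cartilage (log2 3.03, spot error 0.29), and at least 34.5-fold by the second probe. It was 6.88-fold higher in the intermediate than in the outer interzone, and 29.7-fold by the second probe. After normexp these reported-probe differences were 2.99-fold and 3.95-fold, both under 4-fold, and the second was 3.97-fold after quantile normalization. The outer interzone and transient cartilage differed by 1.19-fold (log2 0.25, spot error 0.34), less than the spread between probes of a gene (pooled SD 0.53). In the adult the superficial layer was 9.01-fold above the deep layer and 4.10-fold above the middle layer, and the middle layer 2.20-fold above the deep one. Relative to the median of all genes these adult log2 differences were 4.00, 3.55 and 0.33. The superficial minus deep difference was under 4-fold after quantile normalization (1.59-fold) and after normexp background correction (3.21-fold). The superficial minus middle difference was 3.49-fold with the 75th percentile of all probes, 3.27-fold with the 50th percentile and 1.79-fold after normexp, and it changed sign under quantile normalization (log2 -0.69), under which the median of all genes in that comparison was -3.12.

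Other intracellular members of the pathway had several distributions. SMAD6, the inhibitory SMAD of the BMP branch, had 13.5, 3.19 and 2.44% in the intermediate interzone, outer interzone and transient cartilage and was 4.23-fold higher in the intermediate than in the outer interzone. That difference was 2.08 on the log2 scale, and scaling to the 50th percentile, which moved it by -0.34, put it under 4-fold. SMAD1 had 0.938 and 3.14% in the intermediate and outer interzone and was at least 4.73-fold and at least 15.9-fold above transient cartilage. SMAD4 was not detected in the intermediate interzone, which lay below transient cartilage by at least 12.5-fold. SMAD4 had 14.1% in the superficial adult layer and was not detected in the middle and deep layers. SMAD3, SMAD5 and SMAD9, with 6, 8 and 4 probes, were detected on no array. They were 3 of the 16 SMADs and intracellular regulators on the array (18.8%), against 37.9% of all genes.

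The 3 ID genes, targets of BMP signals, differed from each other. ID1 was detected on the 3 fetal arrays and in no adult layer. Its 5 overlapping probes read 0.975 to 1.47% in the intermediate interzone, 1.32 to 1.77% in the outer one and 1.15 to 1.40% in transient cartilage. Between these regions the reported probe differed by -0.20 (intermediate minus transient cartilage), 0.34 (outer minus transient cartilage) and -0.53 (intermediate minus outer) on the log2 scale, no more than the pooled SD between probes of a gene (0.53 to 0.58), and each of the 3 changed sign under at least 1 of the alternatives. ID1 thus had no settled difference between the fetal regions.

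ID2 was likewise detected on the 3 fetal arrays alone, with 2.25 to 4.29% in the intermediate interzone, 1.35 to 3.10% in the outer one and 3.40 to 8.62% in transient cartilage over its 3 probes. It was highest in transient cartilage by each probe. The reported probe was 2.01-fold lower in the intermediate interzone (1.26 to 2.01-fold over the probes) and 2.78-fold lower in the outer interzone (2.52 to 2.97-fold) than in transient cartilage. For the intermediate interzone the log2 differences were -1.01 by the reported probe and -0.59 and -0.33 by the others. After normexp the reported one was -0.29, so with a pooled SD between probes of 0.58 its size is not settled. The outer difference stayed between -1.80 and -1.09 under the alternatives. ID1 and ID2 shared their detection on the 3 fetal arrays alone with 1332 of 13633 genes (9.77%).

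The probe assigned to ID3 by gene number gave 0.363, 0.312 and 0.172% in the superficial, middle and deep adult layers, of which only the superficial one was detected, just above the lowest detected probe of that array (0.322%). Detection on these 4 arrays was seen for 9.24% of all genes. In the fetus it gave 20.6% in the intermediate interzone, 2.39% in the outer one and 1.37% in transient cartilage. That was 15.0-fold higher in the intermediate interzone than in transient cartilage (log2 3.91, spot error 0.21) and 8.61-fold higher than in the outer interzone. The outer interzone was 1.75-fold above transient cartilage. ID3 was therefore highest where GDF5, BMP4 and SMAD7 were highest among the fetal arrays, whereas ID2 was highest in transient cartilage, where GDF5 and BMP4 were not detected. The margin of ID2 over the intermediate interzone depended on the probe, at 1.26 to 2.01-fold.

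Further response genes were read from the same list. TGFBI, a matrix gene induced by TGF-beta, had 758, 499 and 160.2% in the intermediate interzone, outer interzone and transient cartilage and was not detected in the adult. It was 4.73-fold higher in the intermediate interzone than in transient cartilage. ID4 was 4.03-fold higher in the intermediate and 5.08-fold higher in the outer interzone than in transient cartilage. Scaling to the 50th percentile moved the intermediate minus transient cartilage differences by -0.55 on the log2 scale. Starting from 2.24 for TGFBI and 2.01 for ID4, both were then under 4-fold. CCN2, which encodes connective tissue growth factor, had 1645, 546 and 1026% in the superficial, middle and deep adult layers, against 0.667 and 4.40% in the intermediate and outer interzone and no detection in transient cartilage. KLF10, an early TGF-beta target, had 12.8 and 61.1% in the superficial and deep adult layers and was 4.77-fold lower in the superficial than in the deep layer. Its signals were 328 and 544 intensity units. The log2 difference was -2.25, where the median of all genes was -0.83. With the authors' values no gene of the list was counted as at least 4-fold lower there. KLF10 in the intermediate interzone exceeded transient cartilage at least 10.3-fold, and in the outer interzone at least 4.33-fold.

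**Figure D4:**
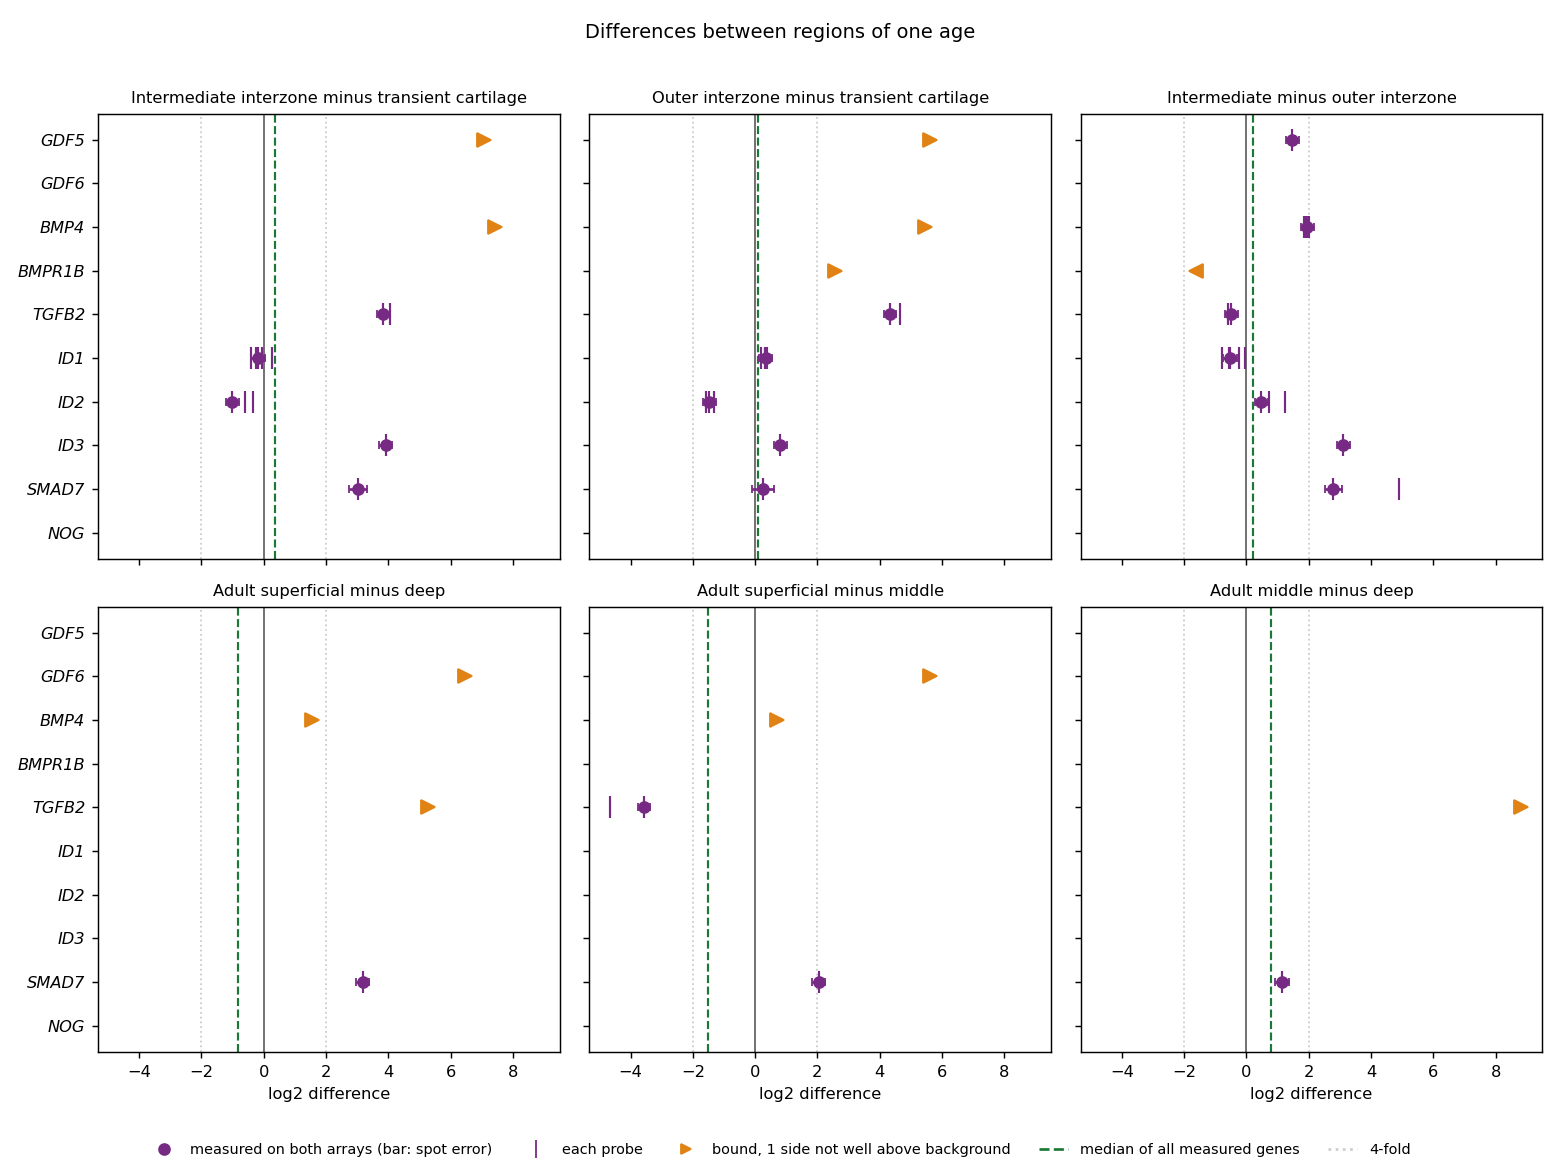
Log2 difference of each of the 10 genes in 6 comparisons between regions of one age (first region minus second). Points are measured differences of the reported probe with the spot error, ticks are single probes, triangles are bounds, the dashed line is the median of all measured genes and dotted lines mark 4-fold. Genes without a symbol were not well above background on either array or had a bound under 1.

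Counted over the fetal comparisons, more of the 10 genes were higher or detected on the interzone side. The 10 genes were chosen with earlier results of these data known, so these counts describe them and are not independent support. In the order given below, 3, 2 and 2 of the 10 genes were detected on neither array of a comparison. Counts of detection on 1 side alone are out of the remaining genes, and the shares beside them are of all genes detected on either array. Between the intermediate interzone and transient cartilage, 3 of 5 genes detected on both arrays were at least 4-fold higher (TGFB2, ID3 and SMAD7, the last of them not after normexp) and 0 lower, where 14.8% of all genes were higher and 6.69% lower. GDF5 and BMP4 were detected in the intermediate interzone alone, as were 11.1% of all genes detected on either array, and 0 in transient cartilage alone, against 26.1%. Between the outer interzone and transient cartilage 1 of 5 was higher (TGFB2) and 0 lower, against 10.5% and 8.35% of all genes, and 3 were detected in the outer interzone alone (GDF5, BMP4 and BMPR1B), against 14.6%, and 0 in transient cartilage alone, against 18.5%. Both comparisons use the same transient cartilage array and share its error. Between the intermediate and outer interzone 2 of 7 were higher (ID3 and SMAD7, the second of them not after quantile normalization or normexp) and 0 lower, against 10.9% and 7.25%, and 1 was detected in the outer interzone alone (BMPR1B), against 23.4%, and 0 in the intermediate interzone alone, against 12.1%.

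In the adult few of the genes were detected on both arrays of a comparison. In the order given below, 5, 5 and 8 of the 10 genes were detected on neither array. Counts of detection on 1 side alone are again out of the remaining genes, beside shares of all genes detected on either array. Between the superficial and the deep layer 1 of 1 was higher (SMAD7), and 0 lower, against 11.1% and 21% of all genes, and 4 were detected in the superficial layer alone (GDF6, BMP4, TGFB2 and ID3), against 60.2%. For ID3 this shows no difference, since its superficial level lay below the lowest detected level of the deep and of the middle array. None was detected in the deep layer alone, against 9.07%. Between the superficial and the middle layer 1 of 2 was higher (SMAD7) and 1 lower (TGFB2, though not with the authors' values), against 9.42% and 37.3%, and 3 were detected in the superficial layer alone (GDF6, BMP4 and ID3), against 67.6%. None was detected in the middle layer alone, against 6.89%. Between the middle and the deep layer 0 of 1 reached 4-fold, against 13% higher and 7.5% lower among all genes, and TGFB2 was detected in the middle layer alone, against 21.5%, and none in the deep layer alone, against 37.8%. Detection in the superficial layer alone was the common case among all genes in both of its comparisons.

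A wider list of 105 genes of the BMP and TGF-beta family was read in the same way. It too was chosen with earlier results of these data known, so its shares are descriptive. The list includes the 10 genes, and 89 of its genes had a probe. Between the intermediate interzone and transient cartilage 26 were detected on both arrays, of which 12 (46.2%) were at least 4-fold higher, 0 lower and 14 within 4-fold, against 14.8% higher and 6.69% lower among all genes. The median log2 difference was 1.55, against 0.36 for all genes. Of 46 genes of the list detected on either array, 11 (23.9%) were detected in the intermediate interzone alone. In transient cartilage alone 8 (17.4%) were detected, among them TWSG1, GDF10, SOSTDC1, SMAD4 and BMP7. Among all genes these shares were 11.1% and 26.1%. Of 2 blood markers on the array, ALAS2 was detected on no array. The other, HBB, had 19.9% in the intermediate interzone, 1.47% in the outer one and 4.03% in transient cartilage. The part of HBB in the result of the list was not tested. Without the 10 genes, 9 of 21 were higher and the median was 1.54. Response genes and SMADs gave 7 of the 12: 3 of 7 measured response genes (ID3, TGFBI and ID4) and 4 of 8 SMADs and intracellular regulators. SKI, which represses SMAD-dependent transcription, was 6.01-fold higher and PMEPA1, a TGF-beta target that feeds back on the pathway, 5.59-fold higher. After normexp background correction 5 genes of the list were at least 4-fold higher, and 6 after scaling to the 50th percentile. The median of all genes was then 0.81 and -0.19. TGFBI, ID4 and PMEPA1 were among the genes under 4-fold with the 50th percentile. The share of all genes past 4-fold was not computed under these settings, so these counts cannot be set against it.

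In the outer interzone 6 of 28 genes of the list (21.4%) were at least 4-fold higher than in transient cartilage and 1 lower (3.57%), against 10.5% and 8.35% of all genes, and the median was 0.39 against 0.08. Of 48 genes of the list detected on either array, 13 (27.1%) were detected in the outer interzone alone and 5 (10.4%) in transient cartilage alone, against 14.6% and 18.5% of all genes. Between the intermediate and outer interzone 4 of 32 (12.5%) were higher and 1 lower (3.13%; CCN2, 6.59-fold), against 10.9% and 7.25% of all genes, with a median of 0.34 against 0.21. In the adult the list was measured for 9 genes between the superficial and deep layers, with 1 higher and 2 lower (11.1% and 22.2%, against 11.1% and 21% of all genes) and a median of -0.78 against -0.83. It was measured for 9 genes between the superficial and middle layers, also with 1 higher and 2 lower (against 9.42% and 37.3% of all genes) and a median of -0.42 against -1.52. 6 genes were measured between the middle and deep layers, none past 4-fold in either direction (median 0.58 against 0.80). Of the genes of the list detected on either array, 23 of 37 (62.2%) were detected in the superficial layer alone against the deep layer, and 24 of 34 (70.6%) against the middle layer, near the 60.2% and 67.6% of all genes.

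Across the ages, SMAD7 allowed a mean over arrays. On the log2 scale relative to the 75th percentile it averaged -3.50 ± 1.61 over the 3 adult layers and -7.14 ± 1.68 over the 3 fetal regions (SD, n = 3 arrays each, regions and not replicates), a difference of 3.64. By this probe and scaling the adult levels lay above the fetal ones, but narrowly, at -4.93 in the deep layer against -5.20 in the intermediate interzone. With signals divided by the array's median the deep layer (19.1) and the middle layer (23.1) lay below the intermediate interzone (23.6). By the second probe, too, the intermediate interzone (6.83%) was above the middle and deep layers, where that probe was not detected. Of the other genes, GDF6 was detected in the adult alone, and GDF5, BMPR1B, ID1 and ID2 in the fetus alone. Among all genes 5.16% were detected in the adult alone and 28.5% in the fetus alone, so 4 of 10 is not far from the share of all genes. Of those detected at both ages, BMP4 was 13.4-fold and 3.46-fold lower in the superficial adult layer than in the intermediate and outer interzone, and ID3 was 56.7-fold and 6.58-fold lower. TGFB2 was 2.25-fold and 3.16-fold lower in the superficial adult layer than in the intermediate and outer interzone, but 6.37-fold higher than in transient cartilage. These differences combine age, tissue and slide, which cannot be told apart.

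The genes whose levels were most like those of GDF5 were sought among 247 genes with a symbol, GDF5 included, whose reported probe was detected on the same 2 arrays alone, by the root mean square difference of centred log2 levels over the 6 arrays, each set to its array's floor where lower. The closest was FST, with a distance of 0.073, an intermediate to outer interzone ratio of 2.48-fold and signals of 559 and 413 intensity units. SCG5 (secretogranin V), GPNMB, FAP (fibroblast activation protein), STMN4 and ENKD1 followed at distances of 0.27 to 0.35. Their ratios of intermediate to outer interzone were 4.94, 2.67, 4.08, 1.62 and 3.27-fold. Since these genes were all set to the array's lowest detected level on the other 4 arrays, the ranking rests on 2 arrays and describes their levels there.

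**Figure D5:**
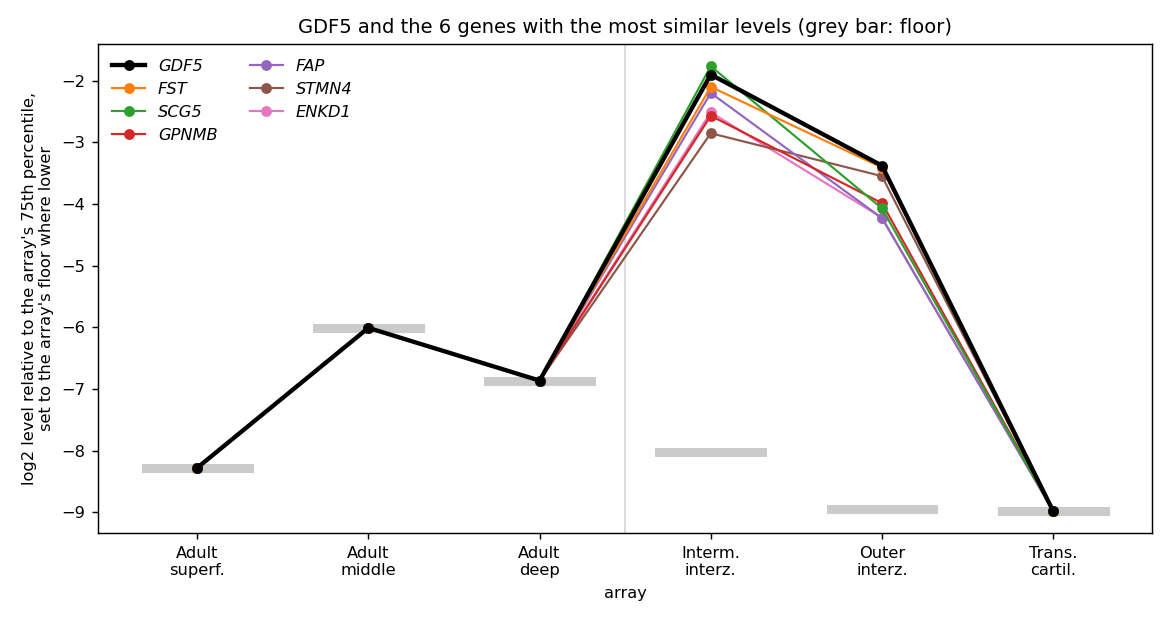
Normalized log2 level of GDF5 and of the 6 genes with the most similar levels on the 6 arrays, set to the lowest detected level of the array (grey bar) where lower. All 7 genes leave the floor on the 2 interzone arrays alone, and FST lies closest to GDF5.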

How the data were processed

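RNA from 6 captured regions was amplified with SuperAmp, and 250 ng of cDNA each was labelled with Cy3 and hybridised for 17 hours at 65 °C, per the labels' protocols. The deposited scanner files hold processed signals, an intensity after background subtraction, and per the file headers the software was Feature Extraction 10.7.3.1 from Agilent. The deposited series table holds a ratio: compared with the scanner values it was the processed signal over the median of its array, and the authors' values were used as an alternative. Of 45220 spots, 1417 control spots and, on each array, 3 to 80 outliers were dropped. No spot was saturated. The authors' settings beyond this were not given in the sources used here.

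Levels are log2 processed signals minus the array's 75th percentile over 1765 probes well above background on all 6 arrays, or the same value as a percent. The reported probe of a gene is the one with the highest mean level. A gene was measured where that probe was well above background on both arrays. A bound was given where no probe of the gene was on 1 side. Genes 4-fold apart were counted. No test was possible with 1 array per group. Spot errors come from the scanner software, and they and the spread between probes leave out variation between animals, dissections and amplifications. Probes were named from their descriptions and the RefSeq gene table (assembly TB-T2T), from which names alone were taken. The members and lists were chosen with earlier results of these data known. Named genes were all members, per comparison and role up to 3 measured genes past 4-fold each way and up to 2 bounds each way, and the 6 genes most like GDF5. Others of the list were named after their values were seen. The comparison of arrays was tested on simulated data, a copy of an array with spot noise and large added changes. That simulation did not cover bounds, scaling or differences in amplification. Analyses used Python 3.11.15, numpy 2.4.6, pandas 2.3.3, R 4.3.3 and limma 3.58.1. The alternatives were other percentiles, quantile normalization, normexp (offset 50), the authors' values, the mean over probes, wider and narrower filters, a 2-fold threshold and leaving out arrays.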

Additional observations from a re-analysis of the deposited data

How the results depend on the processing

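Signal over background and the single array per region limit every value, and no interval covers either. Of the values of genes other than GDF5 under the alternatives, 155 stayed within the pooled SD between probes, 55 moved by more and 1 changed the sign of a difference past 4-fold, SMAD7 in the superficial minus the middle layer, at -0.69 under quantile normalization. GDF5 in the intermediate interzone minus transient cartilage was 6.41 under quantile normalization, 3.94 after normexp and 9.21 with dim values as they stand, and in the outer interzone 4.54, 2.41 and 7.73, against bounds of 7.08 and 5.60. Its difference between the interzone layers ran from 1.14 to 1.87. The scalings and normexp moved the median of all genes by -0.55 to 0.46 (intermediate minus transient cartilage), -0.26 to 0.38 (outer minus transient cartilage), -0.34 to 0.57 (intermediate minus outer), -1.47 to 1.09 (superficial minus deep), -1.60 to 1.95 (superficial minus middle) and -0.86 to 0.11 (middle minus deep).

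Counts of the family list at least 4-fold higher and lower are given in the order of the report. Under the alternatives the share of all genes past 4-fold was not computed, so the 4-fold counts there cannot be set against it. For the intermediate interzone over transient cartilage (12 and 0) the higher count was 6 with the 50th percentile, 5 after normexp, 22 (8 lower) with genes detected on at least 1 array and 2 with those detected on all 6. The lower count was 1 with the mean over probes and 2 at 2-fold. For the outer interzone over transient cartilage (6 and 1) the counts were 2 and 0 after normexp, 18 and 6 with the wider filter and 1 and 0 with the narrower one. The lower count was 2 under quantile normalization and 3 at 2-fold. For the intermediate over the outer interzone (4 and 1) they were 2 and 2 with the 50th percentile and with the authors' values, 1 and 0 after normexp and with the narrower filter, 9 and 8 with the wider filter and 11 and 3 at 2-fold. The lower count was 0 under quantile normalization and 4 with the mean over probes. For the superficial over the deep layer (1 and 2) they were 0 and 6 under quantile normalization, 0 and 1 after normexp, 2 and 0 with the authors' values, 19 and 5 with the wider filter and 2 and 4 at 2-fold, and the lower count was 0 with the narrower filter. For the superficial over the middle layer (1 and 2) the higher count was 0 with the 75th percentile of all probes, the 50th percentile and normexp, 3 (0 lower) with the authors' values, 2 with the mean over probes, 16 with the wider filter and 3 at 2-fold. The lower count was 5 under quantile normalization and 1 with the narrower filter. For the middle over the deep layer (0 and 0) they were 3 and 5 with the wider filter, and 3 higher at 2-fold. The cause of these shifts was not tested.

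Among the 10 genes, differences past 4-fold were under it with another scaling, background correction or value table for SMAD7 in 4 comparisons, BMPR1B (outer interzone over transient cartilage) and TGFB2 (superficial over middle layer), with the values given beside them in the report. The adult minus fetal difference of SMAD7 ran from 2.77 to 4.61 when each array was left out in turn. No paired analysis was possible because each region was 1 array.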
